A study of Mus musculus with 17 samples.

Results

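The interaction of Men1 and Rbp2 loss in mouse pancreatic islets is the difference between 2 differences: the effect of losing Rbp2 in islets that also lack Men1, minus the effect of losing Rbp2 in islets that keep Men1. It was taken from 14 of the 17 arrays of the series, namely 4 of Men1flf Rbp2flf RIP-Cre islets (called the double knockout here), 3 of Men1flf RIP-Cre islets, 4 of Rbp2flf RIP-Cre islets and 3 of RIP-Cre islets. The 3 arrays of wt islets, which have neither a floxed allele nor Cre, entered only the estimate of the spread. All mice were untreated and 2 months old. RIP-Cre makes Cre recombinase from the rat insulin promoter, so the floxed alleles are deleted in beta cells and kept in the other cells of the islet, and all 4 groups of the interaction carry it. Ins2, which codes for insulin, had a mean log2 intensity between 13.58 and 13.70 in every group. Gcg, which codes for the alpha cell hormone glucagon, had group means between 13.31 and 13.70. Sst and Ppy, genes of other islet hormones, averaged 13.69 and 13.70 over all 17 arrays. Whether values this high lie near the upper limit of the arrays was not tested. Each array read whole islets, in which fewer cells of a type and less RNA per cell cannot be told apart. The titles call the arrays of a group repeats without naming separate animals, so p-values measure only the spread between these arrays.

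Menin, the product of Men1, suppresses tumours in endocrine organs. It is a subunit of the MLL1 and MLL2 complexes, which methylate histone H3 at lysine 4, a mark found at the promoters of active genes and most of all at promoters rich in CpG. Rbp2 is the older name of the product of Kdm5a, a demethylase that removes this methyl mark. The comparison asks whether loss of the demethylase has another effect where the methylating complex lacks menin. A positive interaction means that the Rbp2 effect was higher in the Men1flf background than in the RIP-Cre background, and by the same arithmetic that the Men1 effect was higher in the Rbp2flf background than in the RIP-Cre background. A value of 0 means that both effects added up on the log2 scale. All values below are log2 intensities or differences of them, and adjusted p-values are from limma with Benjamini-Hochberg adjustment over 19938 genes, a gene being called where it was under 0.05.

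Lrrc55 had the smallest adjusted p of all genes for the interaction, and Eps8l2 one of the smallest among genes of the opposite sign. Myo7a, of the same sign as Eps8l2, had a smaller limma adjusted p (0.000105 against 0.00111), so adjusted p alone did not pick this pair. The promoters of Lrrc55 and Eps8l2 are shown with each CpG in capitals. The sequences are those of RefSeq, build GRCm38.p6, from 250 bases before to 50 bases after the annotated start, read 5′ to 3′ on the strand of the gene. Lrrc55 lies on the minus strand at chr2:85198701-85199000, and Eps8l2 on the plus strand at chr7:141338752-141339051.
Lrrc55: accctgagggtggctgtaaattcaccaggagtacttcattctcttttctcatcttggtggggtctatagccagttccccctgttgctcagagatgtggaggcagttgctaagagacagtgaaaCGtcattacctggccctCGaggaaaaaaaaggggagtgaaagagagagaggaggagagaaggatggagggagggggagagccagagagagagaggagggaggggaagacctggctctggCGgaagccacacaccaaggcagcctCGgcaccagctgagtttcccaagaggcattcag
Eps8l2: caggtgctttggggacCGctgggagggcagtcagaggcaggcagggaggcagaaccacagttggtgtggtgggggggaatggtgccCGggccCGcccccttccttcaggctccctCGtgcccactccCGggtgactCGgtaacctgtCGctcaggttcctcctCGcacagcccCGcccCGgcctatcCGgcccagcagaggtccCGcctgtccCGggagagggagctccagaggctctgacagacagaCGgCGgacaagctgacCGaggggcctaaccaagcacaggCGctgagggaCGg
The dinucleotide CG, which reads the same on both strands, occurs 4 times in the Lrrc55 window and 18 times in the Eps8l2 window. Of 27025 RefSeq promoters of this length, 68.1% hold at least 4 and 30.1% at least 18, and the median is 7. These counts describe the windows and are no measure of histone marks, which were not analysed here.

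Lrrc55, an auxiliary protein of the BK potassium channels, was high in Men1flf RIP-Cre islets alone among the 5 groups. Its log2 intensity was 7.33, 7.05, 6.90 and 7.04 on the double-knockout arrays, 10.06, 9.56 and 9.71 on the Men1flf RIP-Cre arrays, 6.80, 7.08, 6.95 and 7.06 on the Rbp2flf RIP-Cre arrays and 7.03, 6.93 and 7.32 on the RIP-Cre arrays. The 3 Men1flf RIP-Cre arrays lay above all 14 others, and the double knockout overlapped the range of RIP-Cre. The Rbp2 effect on Lrrc55 was -2.70 (SE 0.14, limma adjusted p = 1.47e-08) in the Men1flf background and -0.12 (adjusted p = 0.515) in the RIP-Cre background. The interaction was -2.58 (SE 0.19, adjusted p = 6.41e-06). Read as the effect of Men1, the change was 0.11 (adjusted p = 0.861) in the Rbp2flf background and 2.68 (SE 0.15, adjusted p = 4.55e-08) in the RIP-Cre background. Leaving out any of the 14 arrays kept the interaction of Lrrc55 between -2.69 and -2.43, called each time.

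Across all genes, 675 of 19938 were called for the interaction (3.39%), 354 of them higher (1.78%) and 321 lower (1.61%). An unadjusted p under 0.05 was found in 7318 genes, or 36.7%. Most of the calls stood close to the threshold, with an adjusted p of 0.03 or more in 312 of the 354 higher and 300 of the 321 lower genes, and 45 higher and 79 lower genes had an interaction of at least 1 log2 unit. The median interaction of all genes was not 0 but 0.20. It depended on the level of the gene, with a median of 0.39 in the dimmest 10% of genes and -0.18 in the brightest. Array medians ran beside it: they were 7.88 to 7.95 in the double knockout, 7.86 to 7.87 in Men1flf RIP-Cre, 7.82 to 7.98 in Rbp2flf RIP-Cre and 7.97 to 8.16 in RIP-Cre. After cyclic loess normalization, which removes such a level-dependent shift, the median of all genes was 0.01, and 151 genes were called higher (0.757%) and 353 lower (1.77%). The share of called genes that were higher was 52.4% with the values as deposited, 30.0% after cyclic loess, 35.6% after quantile normalization and 18.9% with each array centred on its median. A total of 358 genes were called in the same direction with the deposited values and after cyclic loess, 121 higher and 237 lower, out of 675 and 504 calls. With the array median as a covariate 20 genes were called, and 15 genes were called in 1 direction under all 3 treatments. The genes named below come from those 358.

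**Figure D1:**
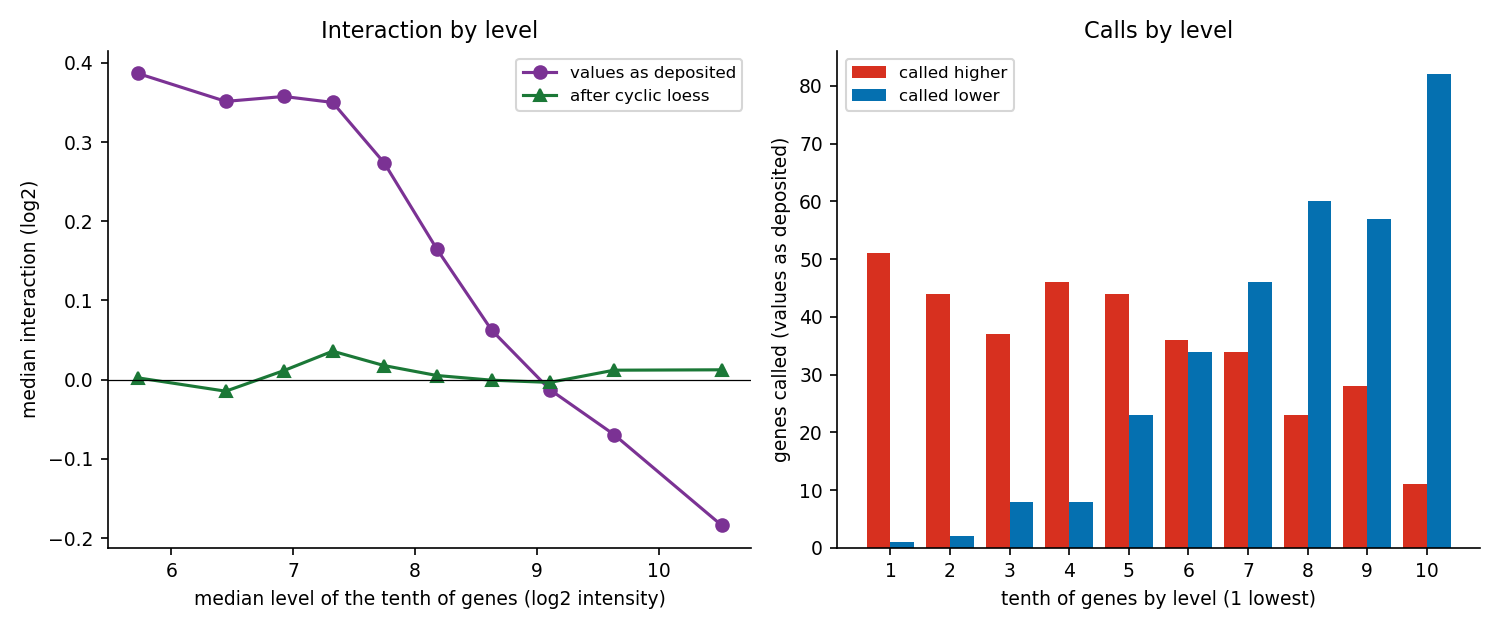
Left, median interaction (log2) of each 10% of the genes against its median level (log2 intensity), for the values as deposited (circles) and after cyclic loess normalization (triangles). Right, number of genes called higher and called lower in each 10% with the values as deposited; calls of higher genes ran between 51 and 11, and calls of lower genes between 1 and 82, from the dimmest to the brightest 10%.

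The number of calls depended on single arrays. Without 1 array it ran from 22 to 2783. It was 22, 85 and 44 without Men1flf RIP-Cre array 1, 2 or 3, 47 and 55 without double-knockout array 1 or 3, 73 and 56 without Rbp2flf RIP-Cre array 1 or 2, and 36 without RIP-Cre array 3. It was 1397 and 1160 without double-knockout array 2 or 4, 1370 without Rbp2flf RIP-Cre array 3 and 2783 without RIP-Cre array 2. After cyclic loess the same step gave between 47 calls, without Men1flf RIP-Cre array 1, and 1296, without double-knockout array 2. The count is therefore given as a description of these arrays, and the results for single genes rest on their own values.

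The targeted genes were read first among the single genes. Men1 had 8.87, 8.54, 8.64 and 8.46 on the double-knockout arrays, 8.14, 8.43 and 8.42 on the Men1flf RIP-Cre arrays, 10.24, 10.05, 10.11 and 10.09 on the Rbp2flf RIP-Cre arrays and 9.31, 9.49 and 9.38 on the RIP-Cre arrays. Both groups with floxed Men1 lay below RIP-Cre, and Rbp2flf RIP-Cre lay above it. The Men1 effect on its own transcript was -1.50 (SE 0.10, limma adjusted p = 3.8e-07) in the Rbp2flf background and -1.06 (SE 0.11, adjusted p = 3.08e-05) in the RIP-Cre background, with an interaction of -0.43 (SE 0.15, adjusted p = 0.0729) that did not pass. Kdm5a, the target of the Rbp2flf allele, had 9.39, 9.07, 9.39 and 9.10 in the double knockout, 9.5, 9.39 and 9.44 in Men1flf RIP-Cre, 9.18, 9.02, 9.01 and 8.95 in Rbp2flf RIP-Cre and 9.37, 9.31 and 9.09 in RIP-Cre. Its Rbp2 effect was -0.21 (adjusted p = 0.399) in the Men1flf background and -0.22 (adjusted p = 0.148) in the RIP-Cre background, and its interaction was 0.01 (adjusted p = 0.963). The position of the Kdm5a probes relative to the deleted part was not analysed here, and a probe set outside that part checks nothing about the deletion.

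By rule, the 12 highest and 12 lowest interactions among the 358 genes were taken for description. The Men1 effect in the RIP-Cre background passed in all 24 of them, beside 53.5% of all genes. The Rbp2 effect in the RIP-Cre background passed in 16 of the 24, beside 13.4% of all genes. Added to the other knockout, the Rbp2 effect in the Men1flf background passed in 14 (1.67% of all genes) and the Men1 effect in the Rbp2flf background in 3 (1.2% of all genes). These 4 effects make up the interaction by which the genes were chosen and share arrays with it, so the counts describe what kind of interaction each gene had and test nothing further. In 15 of the 24 genes both single knockouts differed from RIP-Cre in the same direction, in 8 the Men1 effect in the RIP-Cre background passed and the Rbp2 effect there did not, and in 1 the single knockouts moved in opposite directions. Among the 675 called genes these 3 kinds had 438, 219 and 3 members, and among all 19938 genes 2119, 8499 and 42. The 3 Men1flf RIP-Cre arrays lay beyond all 14 other arrays in 15 of the 24 genes, and the double knockout overlapped Rbp2flf RIP-Cre in 18. The share of all genes with such values was not counted. Since the 24 were chosen by an interaction of these same arrays, both counts only describe the chosen genes. The grouping of the 24 genes into kinds was made after the values were seen.

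**Figure D2:**
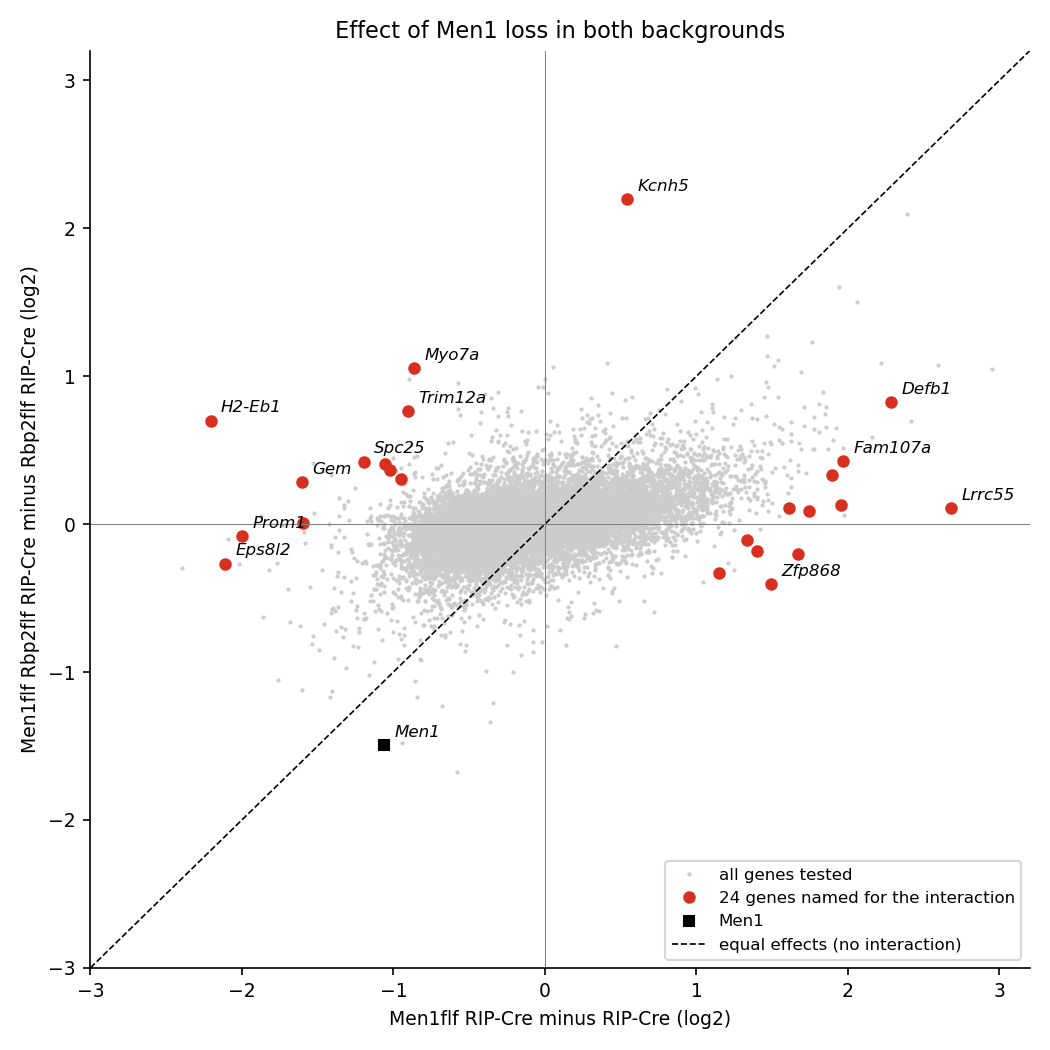
Men1 effect in the Rbp2flf background (vertical axis, log2) against the Men1 effect in the RIP-Cre background (horizontal axis, log2) for all genes tested (grey), the 24 named genes (red) and Men1 (black square); the 2 axes share no array. The dashed line marks equal effects: Kcnh5 (2.20 and 0.54) and Myo7a (1.05 and -0.86) lie above it, and Lrrc55 (0.11 and 2.68) lies below it.

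Fam107a, Zfp868 and Cntfr had the same shape as Lrrc55, high in Men1flf RIP-Cre and near RIP-Cre in the double knockout. Fam107a, an actin-binding protein, had 7.89, 7.97, 8.01 and 8.06 on the double-knockout arrays, 9.88, 9.60 and 9.66 on the Men1flf RIP-Cre arrays, 7.49, 7.51, 7.52 and 7.70 on the Rbp2flf RIP-Cre arrays and 7.92, 7.44 and 7.88 on the RIP-Cre arrays. For Fam107a the Rbp2 effect was -1.73 (SE 0.14, limma adjusted p = 9.37e-06) in the Men1flf background and -0.19 (adjusted p = 0.306) in the RIP-Cre background, which gave an interaction of -1.54 (SE 0.20, adjusted p = 0.00197). Its Men1flf RIP-Cre arrays lay above all 14 others. Zfp868, a zinc finger protein, had 7.23, 7.24, 7.13 and 7.30 in the double knockout, 8.83, 8.84 and 8.67 in Men1flf RIP-Cre, 8.10, 6.98, 7.57 and 7.87 in Rbp2flf RIP-Cre and 7.64, 7.25 and 6.98 in RIP-Cre. The Rbp2flf RIP-Cre arrays spread more (SD 0.48, n = 4) than the double-knockout arrays (SD 0.07, n = 4), and the interaction of Zfp868 was -1.90 (SE 0.28, adjusted p = 0.007). Cntfr, the ligand-binding receptor of ciliary neurotrophic factor, averaged 10.59 ± 0.50 (SD, n = 4) in the double knockout, 11.81 ± 0.22 (n = 3) in Men1flf RIP-Cre, 10.70 ± 0.12 (n = 4) in Rbp2flf RIP-Cre and 10.48 ± 0.23 (n = 3) in RIP-Cre. For Cntfr the limma interaction was -1.44 (SE 0.32, adjusted p = 0.0391), and the call was lost when any 1 of 8 arrays was left out, at an adjusted p of up to 0.11. Those 8 were every Men1flf RIP-Cre array, double-knockout arrays 1 and 3, Rbp2flf RIP-Cre arrays 1 and 2, and RIP-Cre array 3.

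Eps8l2, Prom1 and Metap1d showed the opposite shape, lower in Men1flf RIP-Cre than in the double knockout. The double knockout differed from RIP-Cre by -0.11 (limma adjusted p = 0.72) for Prom1 and -0.04 (limma adjusted p = 0.85) for Metap1d, while Eps8l2 was lower in the double knockout, at -0.43 (SE 0.15, limma adjusted p = 0.0423). Eps8l2, which links growth factor receptors to the actin cytoskeleton, had 9.86, 9.44, 10.14 and 9.32 on the double-knockout arrays, 7.76, 8.04 and 8.22 on the Men1flf RIP-Cre arrays, 9.93, 9.93, 9.96 and 10.01 on the Rbp2flf RIP-Cre arrays and 10.10, 10.07 and 10.19 on the RIP-Cre arrays. The double knockout reached the range of RIP-Cre with 1 of its 4 arrays and lay above all Men1flf RIP-Cre arrays. Its Rbp2 effect was 1.68 (SE 0.15, limma adjusted p = 2.48e-05) in the Men1flf background and -0.16 (adjusted p = 0.435) in the RIP-Cre background, with an interaction of 1.85 (SE 0.22, adjusted p = 0.00111). Prom1, a protein of membrane protrusions that is also a marker of epithelial progenitors, had 9.27, 9.38, 9.45 and 9.43 in the double knockout, 7.09, 8.31 and 7.10 in Men1flf RIP-Cre, 9.93, 9.27, 9.20 and 9.45 in Rbp2flf RIP-Cre and 9.41, 9.79 and 9.29 in RIP-Cre. All 3 Men1flf RIP-Cre arrays were below every other array, though array 2 of that group stood apart at 8.31. The interaction of Prom1 was 1.92 (SE 0.34, adjusted p = 0.0199), and it was not called without Men1flf RIP-Cre array 1 or 3 (adjusted p up to 0.0779). Metap1d, a mitochondrial methionine aminopeptidase, averaged 9.05 ± 0.22 (SD, n = 4) in the double knockout, 8.07 ± 0.30 (n = 3) in Men1flf RIP-Cre, 8.68 ± 0.20 (n = 4) in Rbp2flf RIP-Cre and 9.09 ± 0.08 (n = 3) in RIP-Cre, with a limma interaction of 1.39 (adjusted p = 0.0127).

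**Figure D3:**
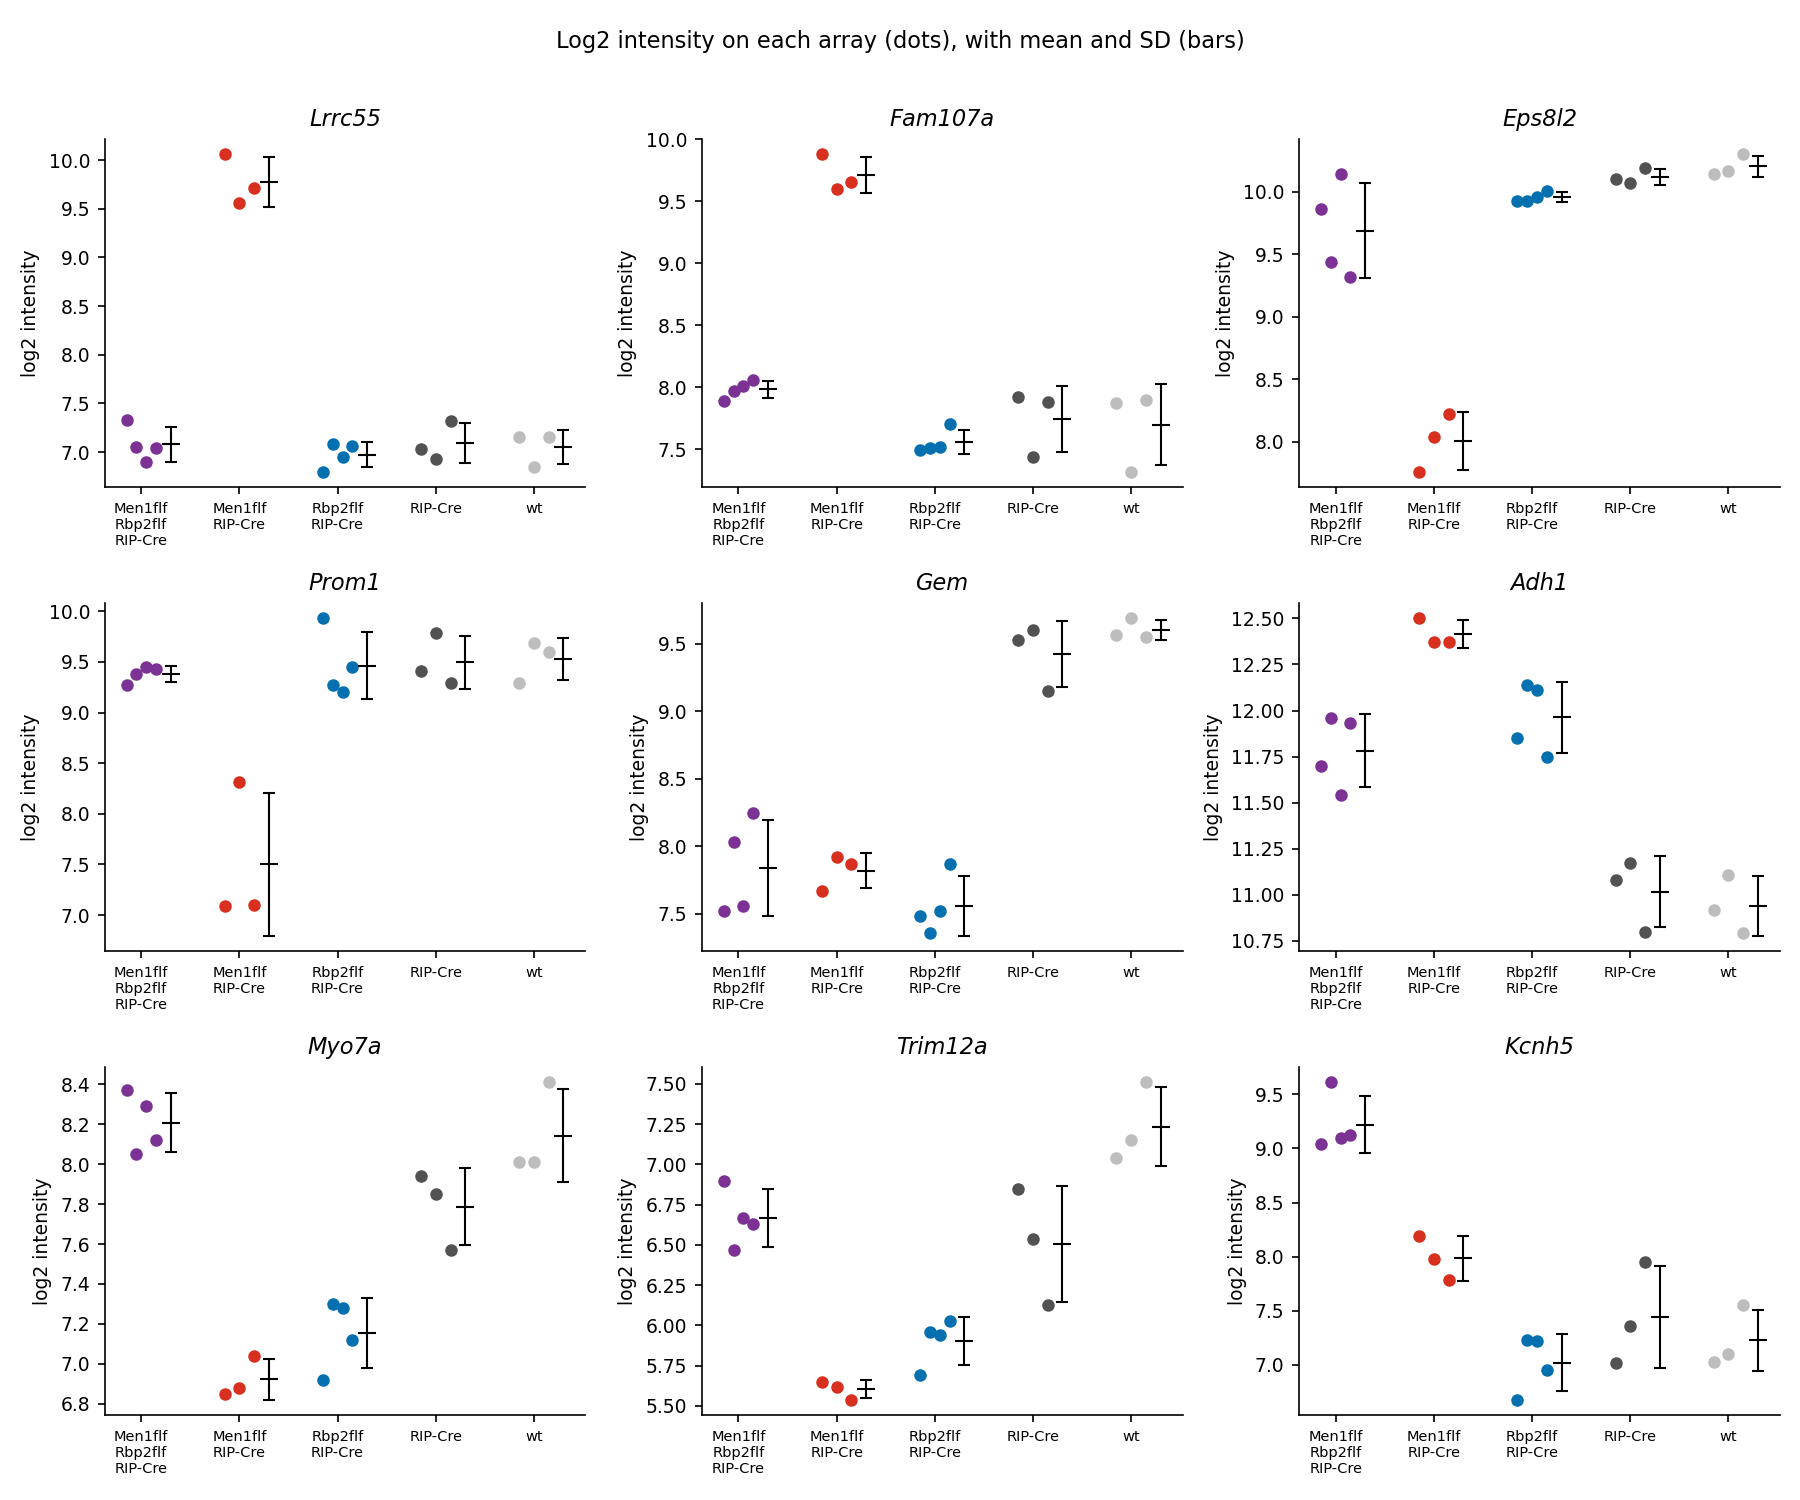
Log2 intensity of 9 genes on each array (dots), with the mean and SD of each group (bars beside the dots), for the double knockout, Men1flf RIP-Cre, Rbp2flf RIP-Cre, RIP-Cre and wt from left to right; each vertical axis has its own range. Lrrc55 and Fam107a are high, and Eps8l2 and Prom1 low, in Men1flf RIP-Cre; Gem is low in all 3 knockout groups.

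In a further set of genes both single knockouts differed from RIP-Cre, and the double knockout averaged no further from it than the single knockout that lay farther away. Gem, a small GTPase that restrains voltage-gated calcium channels, had 7.52, 8.03, 7.56 and 8.25 on the double-knockout arrays, 7.67, 7.92 and 7.87 on the Men1flf RIP-Cre arrays, 7.48, 7.36, 7.52 and 7.87 on the Rbp2flf RIP-Cre arrays and 9.53, 9.60 and 9.15 on the RIP-Cre arrays. The 3 knockout groups overlapped each other, and all 11 of their arrays lay below RIP-Cre. The Rbp2 effect on Gem was 0.02 (limma adjusted p = 0.96) in the Men1flf background and -1.87 (SE 0.17, adjusted p = 9.62e-05) in the RIP-Cre background, and the interaction was 1.89 (SE 0.24, adjusted p = 0.00197). Emc7, a subunit of the membrane protein insertion complex of the endoplasmic reticulum, was the counterpart among genes that rose. It averaged 10.09 ± 0.51 (SD, n = 4) in the double knockout, 10.15 ± 0.07 (n = 3) in Men1flf RIP-Cre, 9.98 ± 0.29 (n = 4) in Rbp2flf RIP-Cre and 8.54 ± 0.27 (n = 3) in RIP-Cre. Loss of Rbp2 gave Emc7 an effect of -0.06 (limma adjusted p = 0.908) in the Men1flf background and 1.44 (adjusted p = 0.00708) in the RIP-Cre background.

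Adh1, a class I alcohol dehydrogenase, rose in each single knockout and stood lower in the double knockout than in Men1flf RIP-Cre. Its values were 11.70, 11.96, 11.54 and 11.93 on the double-knockout arrays, 12.50, 12.37 and 12.37 on the Men1flf RIP-Cre arrays, 11.85, 12.14, 12.11 and 11.75 on the Rbp2flf RIP-Cre arrays and 11.08, 11.17 and 10.80 on the RIP-Cre arrays. The Rbp2 effect on Adh1 was -0.63 (SE 0.13, limma adjusted p = 0.0172) in the Men1flf background and 0.95 (SE 0.13, adjusted p = 0.00239) in the RIP-Cre background, so it passed in both with opposite signs, and the interaction was -1.58 (SE 0.18, adjusted p = 0.00111). Cd63, a tetraspanin of lysosomes and secreted vesicles, had 9.89, 11, 10.42 and 10.97 in the double knockout, 11.04, 11.61 and 11.15 in Men1flf RIP-Cre, 10.74, 10.32, 10.21 and 10.49 in Rbp2flf RIP-Cre and 9.44, 9.33 and 9.17 in RIP-Cre. Tmtc3, a mannosyltransferase of the endoplasmic reticulum, had 9.01, 9.89, 8.62 and 9.32 in the double knockout, 9.87, 9.80 and 9.66 in Men1flf RIP-Cre, 9.62, 9.20, 8.63 and 9.04 in Rbp2flf RIP-Cre and 8.0, 8.15 and 7.95 in RIP-Cre. In Cd63 and Tmtc3 all 3 knockout groups lay above RIP-Cre, and double-knockout arrays 2 and 4 were above arrays 1 and 3. Ttc30b, a component of the transport particles of cilia, had 6.27, 7.58, 6.39 and 7.27 in the double knockout, 8.07, 7.76 and 7.49 in Men1flf RIP-Cre, 7.52, 7.22, 7.0 and 6.57 in Rbp2flf RIP-Cre and 6.26, 5.76 and 6.28 in RIP-Cre. Its double-knockout arrays 1 and 3 were again below arrays 2 and 4. The limma interactions were -1.82 (SE 0.39, adjusted p = 0.037) for Cd63, -1.66 (SE 0.33, adjusted p = 0.0326) for Tmtc3 and -1.87 (SE 0.40, adjusted p = 0.037) for Ttc30b.

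Cst3, Ggh and Defb1 completed this set. Cst3, an inhibitor of cysteine proteases, averaged 12 ± 0.45 (SD, n = 4) in the double knockout, 12.72 ± 0.12 (n = 3) in Men1flf RIP-Cre, 11.67 ± 0.32 (n = 4) in Rbp2flf RIP-Cre and 10.83 ± 0.43 (n = 3) in RIP-Cre, and its limma interaction was -1.57 (adjusted p = 0.042). Ggh, a lysosomal enzyme of folate metabolism, averaged 7.80 ± 0.34 (n = 4) in the double knockout, 8.30 ± 0.10 (n = 3) in Men1flf RIP-Cre, 8.13 ± 0.23 (n = 4) in Rbp2flf RIP-Cre and 7.15 ± 0.12 (n = 3) in RIP-Cre, and its limma interaction was -1.48 (adjusted p = 0.0105). Defb1, an antimicrobial peptide, averaged 10.38 ± 0.56 (n = 4) in the double knockout, 10.59 ± 0.11 (n = 3) in Men1flf RIP-Cre, 9.56 ± 0.25 (n = 4) in Rbp2flf RIP-Cre and 8.31 ± 0.32 (n = 3) in RIP-Cre. Its limma interaction was -1.46 (adjusted p = 0.0398), that of Emc7 was -1.51 (adjusted p = 0.0409), and neither was called, like Cst3, when wt arrays took the place of RIP-Cre arrays (adjusted p of 0.0576 for Defb1, 0.0562 for Emc7 and 0.0614 for Cst3). Ttc30b, Cd63, Tmtc3, Cst3, Emc7 and Defb1 each lost the call when any 1 of the same 8 arrays as for Cntfr was left out.

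Myo7a and Trim12a fell in both single knockouts and not in the double knockout, and each of their 4 effects passed. Myo7a, an unconventional myosin of sensory hair cells, had 8.37, 8.05, 8.29 and 8.12 on the double-knockout arrays, 6.85, 6.88 and 7.04 on the Men1flf RIP-Cre arrays, 6.92, 7.30, 7.28 and 7.12 on the Rbp2flf RIP-Cre arrays and 7.94, 7.85 and 7.57 on the RIP-Cre arrays. All 4 double-knockout arrays lay above all RIP-Cre arrays, and those above both single knockouts, which overlapped each other. The Rbp2 effect on Myo7a was 1.28 (SE 0.13, limma adjusted p = 5e-05) in the Men1flf background and -0.63 (SE 0.13, adjusted p = 0.0139) in the RIP-Cre background. The Men1 effect was 1.05 (adjusted p = 0.000247) in the Rbp2flf background and -0.86 (adjusted p = 0.00044) in the RIP-Cre background, and the interaction was 1.92 (SE 0.18, adjusted p = 0.000105). Trim12a, a member of the family of antiviral TRIM proteins, averaged 6.67 ± 0.18 (SD, n = 4) in the double knockout, 5.60 ± 0.06 (n = 3) in Men1flf RIP-Cre, 5.91 ± 0.15 (n = 4) in Rbp2flf RIP-Cre and 6.51 ± 0.36 (n = 3) in RIP-Cre. Its Rbp2 effect was 1.06 (limma adjusted p = 0.00126) in the Men1flf background and -0.60 (adjusted p = 0.0254) in the RIP-Cre background, and the interaction was 1.67 (adjusted p = 0.00197). Both genes are on chromosome 7, and each stayed called whichever of the 14 arrays was left out.

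Cyp4f39, Tnfrsf17 and Apela also fell in both single knockouts. In the double knockout Cyp4f39 differed from RIP-Cre by -0.09 (limma adjusted p = 0.617), while Tnfrsf17 fell by 0.39 (limma adjusted p = 0.0211) and Apela fell by 0.89 (limma adjusted p = 0.00886). Cyp4f39, a cytochrome P450 that acts on very long fatty acids, averaged 8.88 ± 0.21 (SD, n = 4) in the double knockout, 7.91 ± 0.28 (n = 3) in Men1flf RIP-Cre, 8.47 ± 0.17 (n = 4) in Rbp2flf RIP-Cre and 8.97 ± 0.10 (n = 3) in RIP-Cre, with a limma interaction of 1.46 (adjusted p = 0.00343). Tnfrsf17, a receptor of plasma cells, averaged 6.67 ± 0.07 (n = 4) in the double knockout, 6.10 ± 0.07 (n = 3) in Men1flf RIP-Cre, 6.36 ± 0.12 (n = 4) in Rbp2flf RIP-Cre and 7.05 ± 0.17 (n = 3) in RIP-Cre, with a limma interaction of 1.26 (adjusted p = 0.00197). Apela, a ligand of the apelin receptor, averaged 6.80 ± 0.12 (n = 4) in the double knockout, 6.09 ± 0.05 (n = 3) in Men1flf RIP-Cre, 6.79 ± 0.52 (n = 4) in Rbp2flf RIP-Cre and 7.69 ± 0.38 (n = 3) in RIP-Cre. Its limma interaction was 1.61 (adjusted p = 0.0283), and it was not called when any 1 of the 8 arrays named for Cntfr was left out.

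H2-Eb1, a chain of the MHC class II molecules that immune cells use to present antigen, had the largest positive interaction of the named genes and the widest spread. Its values were 7.90, 7.42, 9.02 and 9.18 on the double-knockout arrays, 7.27, 7.19 and 7.24 on the Men1flf RIP-Cre arrays, 7.27, 7.41, 8.62 and 7.42 on the Rbp2flf RIP-Cre arrays and 9.68, 9.29 and 9.35 on the RIP-Cre arrays. Every array of both single knockouts and of the double knockout was below RIP-Cre, while the double knockout overlapped Rbp2flf RIP-Cre. The interaction was 2.91 (SE 0.53, limma adjusted p = 0.0219), and it was not called without Men1flf RIP-Cre array 1 or 3, RIP-Cre array 3 or Rbp2flf RIP-Cre array 2 (adjusted p up to 0.0757). Other class II genes did not follow it evenly. H2-DMa, which loads peptides onto class II molecules, had an interaction of 0.90 (adjusted p = 0.0482), H2-Ab1 of 0.90 (adjusted p = 0.0889), H2-Aa of -0.03 (adjusted p = 0.963) and the invariant chain gene Cd74 of -0.26 (adjusted p = 0.68). The array means of the 10 lymphocyte markers tested ran from 6.84 to 7.84 in the double knockout, 6.87 to 6.97 in Men1flf RIP-Cre, 6.56 to 6.86 in Rbp2flf RIP-Cre and 6.87 to 7.25 in RIP-Cre, and none of the 10 was called. For the 12 macrophage markers these means ran from 7.84 to 8.18 in the double knockout, 7.84 to 8.08 in Men1flf RIP-Cre, 7.65 to 7.79 in Rbp2flf RIP-Cre and 7.68 to 7.70 in RIP-Cre, again with none called. The part of immune cells in the H2-Eb1 result was not tested.

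Kcnh5 and Spc25 were highest in the double knockout. Kcnh5, a voltage-gated potassium channel, had 9.04, 9.61, 9.10 and 9.12 on the double-knockout arrays, 8.19, 7.98 and 7.78 on the Men1flf RIP-Cre arrays, 6.68, 7.23, 7.22 and 6.95 on the Rbp2flf RIP-Cre arrays and 7.02, 7.36 and 7.95 on the RIP-Cre arrays. The double knockout lay above every other array, and Men1flf RIP-Cre overlapped the highest RIP-Cre array. The Men1 effect on Kcnh5 was 2.20 (SE 0.19, limma adjusted p = 1.95e-05) in the Rbp2flf background and 0.54 (SE 0.22, adjusted p = 0.0494) in the RIP-Cre background, and the interaction was 1.66 (SE 0.29, adjusted p = 0.0199). Without Men1flf RIP-Cre array 3 its adjusted p was 0.0518. Spc25, a subunit of the kinetochore complex that binds microtubules in mitosis, had 10.45, 11.03, 10.56 and 11 in the double knockout, 7.90, 7.97 and 8.80 in Men1flf RIP-Cre, 10.53, 10.14, 9.96 and 10.72 in Rbp2flf RIP-Cre and 9.27, 9.66 and 9.33 in RIP-Cre. Men1flf RIP-Cre was below every other array, and the other knockout groups lay above RIP-Cre and overlapped each other. The Rbp2 effect on Spc25 was 2.54 (SE 0.22, limma adjusted p = 1.29e-05) in the Men1flf background and 0.92 (SE 0.22, adjusted p = 0.0218) in the RIP-Cre background, so loss of Rbp2 raised it in both, with an interaction of 1.62 (SE 0.31, adjusted p = 0.0283) that was not called without Men1flf RIP-Cre array 1 or 2, RIP-Cre array 3 or Rbp2flf RIP-Cre array 2. In the reference annotation Spc25 stands next to G6pc2 on chromosome 2, the gene of the islet glucose-6-phosphatase, and both were called with opposite signs. G6pc2 averaged 12.66 in the double knockout, 12.85 in Men1flf RIP-Cre, 12.41 in Rbp2flf RIP-Cre and 11.50 in RIP-Cre, with a limma interaction of -1.10 (adjusted p = 0.033). None of the 19 mitosis genes tested was called, and their median interaction was 0.42 as deposited and 0.14 after cyclic loess.

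**Figure D4:**
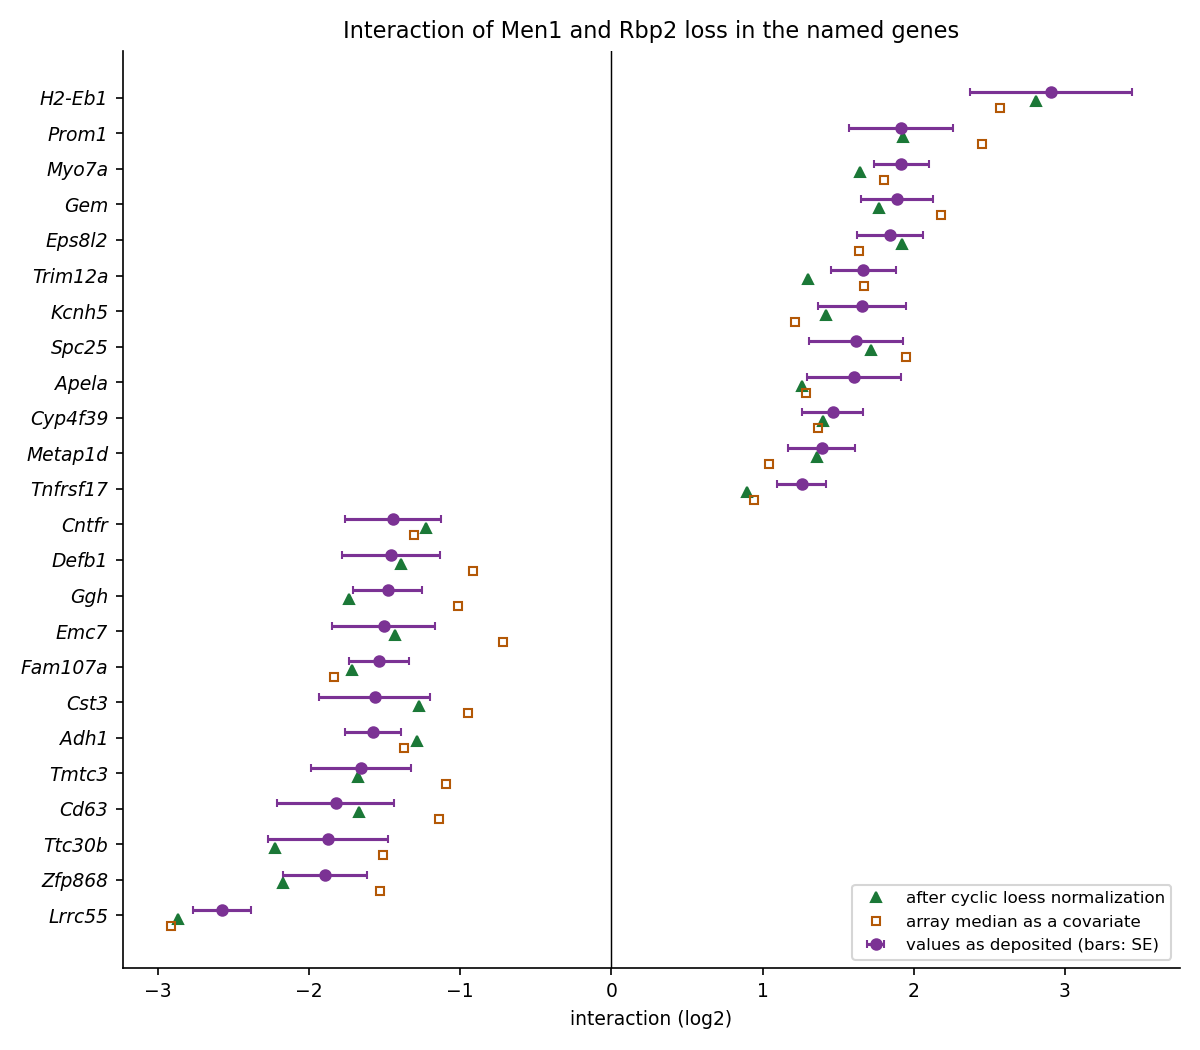
Interaction (log2) of the 24 named genes with the values as deposited (circles, bars give the SE), after cyclic loess normalization (triangles) and in the fit that has the array median as a covariate (open squares). With the values as deposited they ran from 2.91 for H2-Eb1 to -2.58 for Lrrc55. The genes were chosen for the same sign as deposited and after cyclic loess. With the covariate all 24 kept their sign and 9 were called. That fit used the same values and arrays by which the genes were chosen, so the kept signs are no independent support.

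The named genes kept their sign in every alternative that tested them, which for cyclic loess was fixed by the choice of genes. The other alternatives share arrays with that choice, so the kept signs are no independent support. Trim12a, Tnfrsf17 and Ttc30b were under the level filter and so not tested in the alternative that applied it. With the array median as a covariate 9 of the 24 were called, namely Prom1, Myo7a, Gem, Eps8l2, Trim12a, Tnfrsf17, Lrrc55, Adh1 and Fam107a. When each of the 14 arrays was left out in turn, 12 were called every time: Myo7a, Gem, Eps8l2, Trim12a, Cyp4f39, Metap1d, Tnfrsf17, Lrrc55, Zfp868, Adh1, Fam107a and Ggh.

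Gene lists were read by the number of members called and by their median, beside the same over all genes. Of 526 list members tested, 16 were called, or 3.04%, beside 3.39% of all genes, a share close to the background. After cyclic loess 9 of the 16 were also called, while Jund, Scg2, H2-DMa, Irx1, Scn3a, Egr2 and Adipoq were not. Of the 16, 2, Lrrc55 and Gem, stayed called whichever of the 14 arrays was left out. H2-Eb1 and Ring1 were called in 10 of these 14 fits, 10 further members in 6, and Irx1 and Scn3a in 4. The unfolded protein response had the lowest list median with the values as deposited and after cyclic loess. With the covariate 4 lists stood lower, namely acinar markers (-0.89), the early response to isolation (-0.56), endothelial markers (-0.32) and mesenchymal markers (-0.29). Genes of the unfolded protein response code for chaperones, folding enzymes and sensors of the endoplasmic reticulum, and the median interaction of this list was -0.68 as deposited, -0.44 after cyclic loess and -0.23 with the covariate, against 0.20, 0.01 and 0.02 over all genes. None of its 23 genes was called by limma, although 17 had an unadjusted p under 0.05, beside 36.7% of all genes. In this list 20 genes were below 0, and the share of all genes below 0 was not counted. The list was bright, with RIP-Cre array means of 10.54 to 10.90. The brightest 10% of all genes, at a median level of 10.52, had a median interaction of -0.18 as deposited and 0.01 after cyclic loess. The median Rbp2 effect on the list was -0.06 in the Men1flf background and 0.62 in the RIP-Cre background, and the median Men1 effect was -0.12 in the Rbp2flf background and 0.53 in the RIP-Cre background. Hspa5, the main chaperone of the list, averaged 12.79 in the double knockout, 12.79 in Men1flf RIP-Cre, 12.91 in Rbp2flf RIP-Cre and 12.07 in RIP-Cre, with an interaction of -0.84 (limma adjusted p = 0.0614). Dnajb9, a cochaperone, averaged 10.94 in the double knockout, 11.48 in Men1flf RIP-Cre, 10.88 in Rbp2flf RIP-Cre and 9.51 in RIP-Cre, with an interaction of -1.91 (limma adjusted p = 0.0523). Canx, the membrane chaperone calnexin, had -0.82 (limma adjusted p = 0.0512), the smallest adjusted p of the list.

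Other lists of secretion and metabolism also had medians below that of all genes with the values as deposited. These lists were bright, with RIP-Cre array means from 8.84 for cholesterol synthesis to 11.48 for the beta cell list. Each 10% of all genes with a median level of 9.11, 9.63 or 10.52 had a median interaction of -0.01, -0.07 or -0.18 as deposited. Cholesterol synthesis had a median of -0.45 as deposited and -0.39 after cyclic loess, with 0 of 16 genes called. The proteasome subunits had -0.39 and -0.32, and 1 of 31 was called, the ATPase subunit gene Psmc6 at -0.94 (limma adjusted p = 0.0391). Oxidative phosphorylation had -0.38 and -0.27 with 0 of 62 called; after cyclic loess 1 of them, Ndufa7, was called at 0.44 (limma adjusted p = 0.042). The beta cell list had -0.37 and -0.11, with G6pc2 called of 25 genes and 13 at an unadjusted p under 0.05, beside 36.7% of all genes. Exocytosis and granule genes had -0.21 and 0.07, and 2 of 18 were called. These were the granins Scg2 at -0.91 (limma adjusted p = 0.0416) and Scg3 at -0.78 (limma adjusted p = 0.042), which averaged 12.81 and 12.60 in the double knockout, 12.93 and 12.75 in Men1flf RIP-Cre, 12.71 and 12.64 in Rbp2flf RIP-Cre and 11.93 and 12 in RIP-Cre. The cytosolic ribosomal proteins had -0.15 and 0.13 with 0 of 55 called, so the sign of their median changed with the normalization, as did that of exocytosis genes. With the covariate, cholesterol synthesis had a median of -0.15, the proteasome -0.17 and oxidative phosphorylation -0.05. The beta cell list had -0.03, exocytosis genes 0.07 and ribosomal proteins 0.14 in that fit, against 0.02 over all genes.

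**Figure D5:**
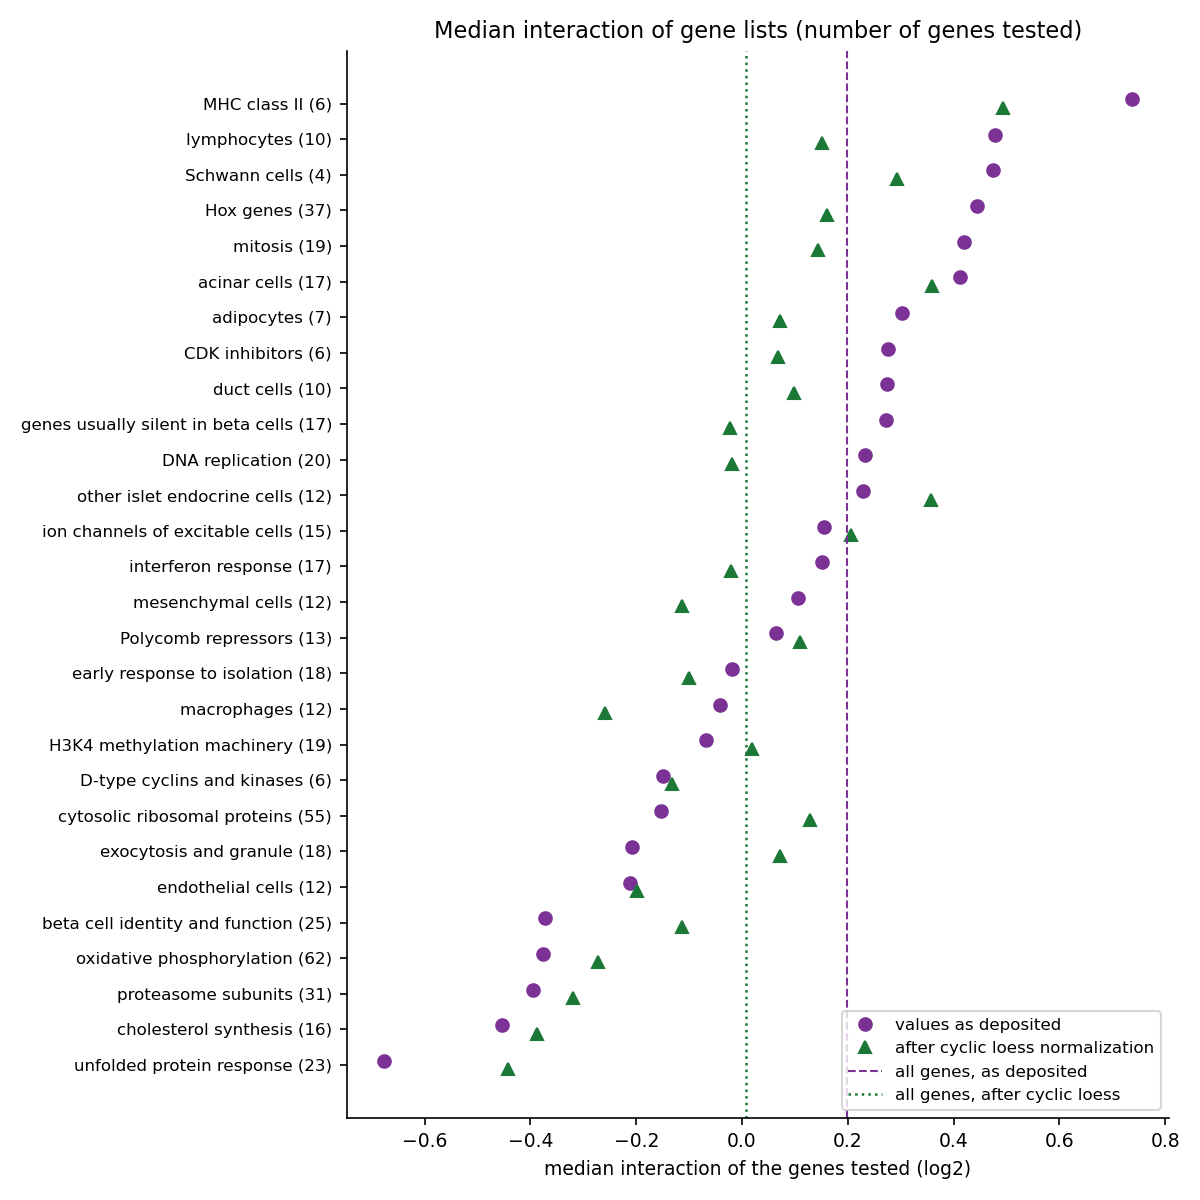
Median interaction (log2) of the gene lists with at least 4 genes tested (their number in brackets), with the values as deposited (circles) and after cyclic loess normalization (triangles); vertical lines give the median of all genes, 0.20 and 0.01. The unfolded protein response stands lowest at -0.68 and -0.44, and MHC class II highest at 0.74 and 0.49.

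Lists of chromatin and of the cell cycle are given next. Of the 19 genes of the H3K4 methylation machinery 1 was called, Jund, a transcription factor that binds menin, at -0.80 (limma adjusted p = 0.0465), and the list median was -0.07 as deposited and 0.02 after cyclic loess. The demethylases closest to Kdm5a, Kdm5b and Kdm5c, had -0.15 (limma adjusted p = 0.386) and -0.09 (limma adjusted p = 0.583). Of 13 Polycomb repressors Ring1 was called at 0.90 (limma adjusted p = 0.0219), and it averaged 9.0 in the double knockout, 8.84 in Men1flf RIP-Cre, 9.10 in Rbp2flf RIP-Cre and 9.84 in RIP-Cre; the list median was 0.06 as deposited and 0.11 after cyclic loess. Hox genes, which are targets of the menin complexes in blood cells, had a median of 0.44 as deposited, 0.16 after cyclic loess and -0.01 with the covariate. Of 37 Hox genes 0 were called, 20 had an unadjusted p under 0.05, beside 36.7% of all genes, and 36 were above 0. The share of all genes above 0 was not counted. Each 10% of all genes with a median level between 6.45 and 7.75 had a median interaction of 0.27 to 0.36 as deposited. The smallest adjusted p of the Hox genes belonged to Hoxb7 at 0.90 (limma adjusted p = 0.0521). The CDK inhibitors, among them the menin targets Cdkn1b and Cdkn2c, had a median of 0.28 and 0.07 with 0 of 6 called. Cdkn1b had -0.20 (limma adjusted p = 0.219) by its brightest probe set and -1.21 (adjusted p = 0.0546) by another, and Cdkn2c had -0.28 (adjusted p = 0.299). DNA replication had a median of 0.23 and -0.02, with the ribonucleotide reductase gene Rrm1 called of 20 at -0.64 (limma adjusted p = 0.0489), and the D-type cyclins and kinases had -0.15 and -0.13 with 0 of 6 called.

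The remaining lists held the other calls. Among 15 ion channels Lrrc55 and Gem were called as above and also the sodium channel gene Scn3a at 0.92 (limma adjusted p = 0.0481), with a list median of 0.16 as deposited and 0.21 after cyclic loess. Scn3a averaged 7.88 in the double knockout, 6.49 in Men1flf RIP-Cre, 8.57 in Rbp2flf RIP-Cre and 8.11 in RIP-Cre. Of the other islet endocrine genes 1 of 12 was called, the transcription factor Irx1 at 0.72 (limma adjusted p = 0.048), and the list had 0.23 and 0.36. The interferon response had 0.15 and -0.02, with Usp18, which removes the ubiquitin-like modifier of that response, called of 17 at -0.91 (limma adjusted p = 0.0468). The early response to isolation had -0.02 as deposited, -0.10 after cyclic loess and -0.56 with the covariate, with Egr2 called of 18 at 0.61 (limma adjusted p = 0.0435). Adipocyte markers had 0.30 and 0.07, with Adipoq, the fat hormone adiponectin, called of 7 at 0.69 (limma adjusted p = 0.0398). MHC class II had 0.74 and 0.49, with 2 of 6 called. No gene was called among those usually silent in beta cells (0.27 and -0.02, 17 genes), duct markers (0.27 and 0.10, 10), endothelial markers (-0.21 and -0.20, 12), mesenchymal markers (0.11 and -0.11, 12), macrophage markers (-0.04 and -0.26), lymphocyte markers (0.48 and 0.15), Schwann cell markers (0.47 and 0.29, 4), red blood cell markers (0.36 and 0.05, 2) and Y-linked genes (-0.39 and -0.28, 3). Acinar markers, genes of the exocrine pancreas, had 0.41 and 0.36 with 0 of 17 called, and -0.89 in the fit with the covariate. Their array means ran from 8.30 to 10.57 in the double knockout, 8.32 to 10.49 in Men1flf RIP-Cre, 8.10 to 9.25 in Rbp2flf RIP-Cre and 7.97 to 10.54 in RIP-Cre, ranges that overlap between all 4 groups.

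Genes picked by an effect in the RIP-Cre background had a smaller median effect where the other gene was also lost. Picking genes by size in 1 background by itself gives such a fall in the other. The Men1 effects in the 2 backgrounds share no array, so genes were picked by their effect in 1 background and read in the other. A total of 557 genes were called and changed by at least 1 log2 unit by Men1 loss in the RIP-Cre background. In the Rbp2flf background the 370 that rose had a median Men1 effect of 0.295, against 1.18 in the RIP-Cre background, and the 187 that fell had -0.27, against -1.13 in the RIP-Cre background. The slope of the effect in the Rbp2flf background on that in the RIP-Cre background was 0.27 through 0, and it ran from 0.21 to 0.33 when each array was left out in turn. After cyclic loess it was 0.28 over 527 genes, and with the array median as a covariate 0.39 over 115. Without RIP-Cre array 1 the median of the genes that fell was -0.17. Since genes picked for their size in 1 background tend to have that effect overstated, the reverse choice is given too. By the Men1 effect in the Rbp2flf background 19 genes qualified, and their slope in the RIP-Cre background was 0.86 (0.81 to 1.01 without single arrays). For Rbp2, 76 genes were picked in the RIP-Cre background. In the Men1flf background the 38 that rose had a median of -0.02, against 1.16 in the RIP-Cre background, and the 38 that fell had -0.36, against -1.30 in the RIP-Cre background. Their slope was 0.27. Without RIP-Cre array 3 the median of the genes that rose was 0.61, and without Rbp2flf RIP-Cre array 1 it was 0.35. The median of those that fell ran from -0.62 without Rbp2flf RIP-Cre array 1 to 0.02 without RIP-Cre array 2, and was -0.545 without double-knockout array 3, -0.06 without RIP-Cre array 1, -0.12 without double-knockout array 4, -0.16 without Rbp2flf RIP-Cre array 4 and -0.20 without Rbp2flf RIP-Cre array 3. Between 30 genes (without RIP-Cre array 3) and 143 (without RIP-Cre array 1) were picked when 1 array was left out, and 9 with the array median as a covariate. The slope moved to 0.55 without RIP-Cre array 3 and 0.42 without Rbp2flf RIP-Cre array 1, and to 0.10 without RIP-Cre array 1 or 2 and 0.15 without double-knockout array 2 or 4. Of the 48 genes picked by the Rbp2 effect in the Men1flf background the slope in the RIP-Cre background was 0.34 (0.29 to 0.37). With all arrays the slope was thus under 1 for Men1 and for Rbp2, whichever background served for picking. The slopes therefore do not show in which background either effect was larger, and the reverse choice for Men1 rested on only 19 genes. These slopes are across genes, which are not independent replicates, and carry no test.

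For the called genes as a whole the medians of the effects are given as a description. These effects make up the interaction by which the genes were called, so their differences follow from the choice and test nothing further. Among the 354 called higher the median Rbp2 effect was 0.30 in the Men1flf background and -0.40 in the RIP-Cre background, and the median Men1 effect was 0.04 in the Rbp2flf background and -0.69 in the RIP-Cre background. Among the 321 called lower the median Rbp2 effect was -0.30 in the Men1flf background and 0.52 in the RIP-Cre background, and the median Men1 effect was 0.085 in the Rbp2flf background and 0.90 in the RIP-Cre background. The called higher genes had a median level of 7.51 and the called lower genes of 9.21, beside 7.96 over all genes, and 78 of the higher and 5 of the lower genes were predicted, clone-named or receptor-family genes that the naming rule left out. Of the 358 genes called with both normalizations, 7 pairs stand next to each other in the reference annotation. The paralogues Tspyl1 and Tspyl4 on chromosome 10 had -0.88 and -0.71, Slc38a9 and Plpp1 on chromosome 13 had -0.70 and -0.78, Tgfbr1 and Alg2 on chromosome 4 had -0.82 and -0.96, and Ppt1 and Cap1 on the same chromosome had -0.97 and -1.03. D8Ertd738e and Mri1 on chromosome 8 had 0.58 and 0.86, while Esrp2 and Pla2g15 on that chromosome had 0.90 and -0.42, opposite in sign like Spc25 and G6pc2. The pairs were not tested against chance.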

How the data were processed

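Islet RNA was hybridised to 17 Affymetrix whole-transcript arrays, and groups were read from the sample titles. The authors deposited log2 intensities for 35512 probe sets. Base 2 follows from the low values, 82.3% of which are log2 of a multiple of 0.25; how background was corrected and arrays were scaled is not given in the sources used here. Arrays carry no counts, so their number limits the precision. Of the probe sets 21789 named 1 gene, 1621 several and 12102 were not in the platform's gene table; 21698 of the 21789 were found in the reference annotation. The brightest probe set per gene gave 19938 genes, 999 with several probe sets.

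Group means of all 17 arrays were fitted with limma 3.58.1 in R 4.3.3 (lmFit, eBayes), and the interaction and its 4 effects were taken as contrasts; summaries used Python 3.11.15. A gene was called at an adjusted p under 0.05. Named genes are Men1, Kdm5a, the 12 highest and the 12 lowest interactions among genes called in the same direction also after cyclic loess normalization, and of each list the members with the highest and lowest moderated t and any others called, of which the text gives all that were called and a few that were not; predicted, clone-named, olfactory and similar symbols were left out. Hspa5, Dnajb9, Kdm5b, Kdm5c, Cdkn2c, H2-Aa, H2-Ab1, Ins2, Gcg and Sst, and the neighbouring pairs, were added after their values were seen. Gene members and the 31 lists (594 genes, 526 tested) were chosen with earlier results of these data known. Alternatives were cyclic loess, quantile and median normalization, the array median as a covariate, 14 arrays only, wt or wt with RIP-Cre as control, a block for the repeat number, leaving out genes under the 25th percentile of level, intensity trend with robust variances, all or second probe sets, and each array left out; leaving out arrays and the block after cyclic loess were added after seeing the data.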

Additional observations from a re-analysis of the deposited data

Results flagged for a closer look

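The interaction is itself a test of whether an effect differs between backgrounds, and it passed in 354 genes in the positive and 321 in the negative direction, with the dependence on single arrays given in the report.

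In groups of 4 arrays, 9 of the 172 gene and group combinations examined had 1 array apart from the other 3, relative to the range of the group, by Dixon's criterion, where chance gives about 1 in 20. H2-Eb1 was at 8.62 on Rbp2flf RIP-Cre array 3, against 7.27 to 7.42 on the others of its group; without it the interaction was 3.22 (limma adjusted p = 0.00942). Kcnh5 was at 9.61 on double-knockout array 2, against 9.04 to 9.12, and the interaction without it was 1.53 (limma adjusted p = 0.0197). Fam107a was at 7.70 on Rbp2flf RIP-Cre array 4, against 7.49 to 7.52, and its interaction without it was -1.49 (limma adjusted p = 0.00672). G6pc2 was at 12.23 on Rbp2flf RIP-Cre array 3, against 12.47 to 12.48, with -1.16 (limma adjusted p = 0.0369) without it.

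Irx1 was at 8.08 on double-knockout array 1, against 7.66 to 7.73, and was not called without it (0.63, limma adjusted p = 0.092). Scn3a was at 8.61 on Rbp2flf RIP-Cre array 2, against 8.55 to 8.56, and was not called without it (0.94, limma adjusted p = 0.0743). The other 3 genes were not called in either case: Setd1b, of a histone methylating complex, was at 10.34 on Rbp2flf RIP-Cre array 3, Cldn5, an endothelial tight junction gene, at 7.72 on Rbp2flf RIP-Cre array 1, and Fcer1g, a myeloid receptor subunit, at 8.33 on Rbp2flf RIP-Cre array 2.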

How the results depend on the processing

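The number of genes called for the interaction changed with the setting, and the cause was not tested. Against 675 calls (354 higher, 321 lower), there were 1375 (739 and 636) in a fit of the 14 RIP-Cre arrays alone, 508 (301 and 207) with wt as control, 3256 (2019 and 1237) with wt and RIP-Cre pooled, 1400 (673 and 727) without genes under the 25th percentile of level and 1198 (577 and 621) with an intensity trend and robust variances. By scaling, there were 504 (151 and 353) after cyclic loess, 340 (121 and 219) after quantile normalization, 640 (121 and 519) with median centring and 20 (9 and 11) with the array median as a covariate. All probe sets gave 732 and the second probe set 697. Leaving out 1 array gave 22 to 2783 calls, 15 to 1980 higher and 7 to 803 lower.

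With the repeat number as a replicate block there were 1933 calls (1171 and 762), and after cyclic loess 515. Deviations from group means were compared between the 14 RIP-Cre arrays, without wt. Those of 19 same-numbered pairs correlated from -0.30 to 0.45, 4 of them above 0.1. Those of 54 differently numbered pairs correlated from -0.61 to 0.43, 14 of them above 0.1. Array 3 of RIP-Cre, Rbp2flf RIP-Cre and the double knockout correlated with each other at 0.45, 0.27 and 0.27. Array 3 of Men1flf RIP-Cre correlated with these at 0.07, 0.08 and -0.06. A pairing by number was thus not borne out for all groups, and whether some arrays are paired was not tested. All 24 named genes stayed called with the block, and 23 with the block after cyclic loess.

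Of the 24 named genes, 9 stayed called with the array median as a covariate, 21 with wt as control and 23 after quantile normalization. The call was kept in 261 of 336 fits that left out 1 array. No sign changed where a gene was tested, which for cyclic loess was fixed by the choice of genes. The other fits share arrays with that choice. No value moved by over 1.5 times on leaving out an array. Of 806 alternative list medians, 115 moved by more than the SD of the list mean between arrays of a group, and of 72 alternative slopes 27 moved by more than the SD over the fits that left out 1 array.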
